A study of Mus musculus with 20 samples.

Results

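Microglia are the resident immune cells of the retina. The RNA described here is that of 10 genes widely used to mark them and other macrophages: Aif1, Cx3cr1, P2ry12, Tmem119, Csf1r, Itgam, Cd68, Trem2, Tyrobp and Spp1. The 10 were taken by gene symbol, and all 10 were found among the 19716 symbols of the deposited tables. The data are bulk RNA-Seq of whole mouse retinas in 20 libraries, 5 per group in 4 groups, from mice on a C57BL/6J background. In the oxygen-induced retinopathy (OIR) experiment, wild-type (*Atf6*+/+) and Atf6 knockout (*Atf6*−/−) pups of both sexes breathed 75% oxygen from postnatal day (P) 7 to P12, returned to room air, and gave their retinas at P17. In the injection experiment, wild-type P30 mice received 1 µL of 10 µM Ceapin-A7, a small molecule inhibitor of ATF6, or 1 µL of vehicle labelled PBS, in the vitreous of both eyes, and retinas were taken 24 h later. The vehicle was saline with a small share of solvent, and these mice are called saline-treated here. The paper's methods give a larger share of the solvent DMSO in this vehicle than in the Ceapin-A7 solution. Drug and solvent dose thus differ together between these groups and cannot be told apart. The *Atf6*−/− line carries a premature stop codon and lacks the protein in every cell, so nothing in either experiment was restricted to microglia.

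Atf6 RNA did not separate the genotypes. It was 14.95 ± 0.618 FPKM in *Atf6*+/+ OIR and 15.18 ± 1.52 FPKM in *Atf6*−/− OIR retinas (SD, n = 5 each), where FPKM is fragments per kilobase of transcript, scaled to the fragments of the library. It was 16.3 ± 0.984 FPKM in saline-treated and 16.4 ± 0.601 FPKM in Ceapin-A7-treated retinas, so the level of this RNA is no check of the knockout label.

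Microglia enter the retina early in development, survive on signals through the CSF1 receptor, and watch neurons through the fractalkine receptor and the ADP receptor P2RY12. In the resting state they keep a homeostatic programme that includes P2ry12, Tmem119 and Cx3cr1. On injury or hypoxia they can lose part of it and take on a phagocytic state in which the lipid sensor TREM2 and its adaptor TYROBP, the lysosomal protein CD68 and the secreted protein osteopontin (Spp1) are known to be prominent. In OIR, microglia and infiltrating macrophages gather around neovascular tufts. In RNA from whole tissue, fewer cells of a type and less RNA per cell cannot be told apart.

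All 10 genes were above 0 in all 20 libraries, so RNA of these markers was present throughout, at low level. Their summed level was 37.2 to 78.8 FPKM per library, against 16790 to 24880 FPKM for 10 rod photoreceptor genes. FPKM sums were 410599 to 456250 per library, with 2257 to 2619 genes listed at 0. Depth was read from the smallest steps between low values, relative to the other libraries of the same experiment. It was 1.0 in 17 libraries, 0.939 in *Atf6*−/− OIR library 4, 1.033 in saline library 2 and 0.688 in Ceapin-A7 library 3. As the values are rounded, these are approximate, and they do not compare depth between the experiments. At this depth the rarest members rested on few fragments. Aif1 had about 6 to 31 per library and P2ry12 about 24 to 145, so counting error alone is part of the spread seen below. No library held the values of another, as at most 0.728% of values were identical between libraries of a group. The sources do not say whether each library was 1 mouse, and the p-values measure the spread between these libraries.

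The sequences just upstream of the members' starts are shown because the results turn on genes that varied together and on P2ry12, which did not vary with them. RefSeq promoters (build GRCm38.p6) were matched for 7 of the 10 members, with 8 promoters in all, and the 250 bases before the start are used. PU.1 is the ETS-family factor that macrophages depend on, and the core searched here was AGGAAG on either strand (CTTCCT on the other). Capitals mark that core in P2ry12 (chr3:59262986-59263235, minus strand), Itgam (chr7:128062390-128062639, plus strand) and Trem2 (chr17:48346151-48346400, plus strand).
P2ry12: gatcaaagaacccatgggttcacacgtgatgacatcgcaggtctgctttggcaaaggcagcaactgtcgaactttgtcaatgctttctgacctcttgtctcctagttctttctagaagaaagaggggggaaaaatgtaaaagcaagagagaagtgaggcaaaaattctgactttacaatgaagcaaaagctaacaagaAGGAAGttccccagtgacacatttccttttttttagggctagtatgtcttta
Itgam: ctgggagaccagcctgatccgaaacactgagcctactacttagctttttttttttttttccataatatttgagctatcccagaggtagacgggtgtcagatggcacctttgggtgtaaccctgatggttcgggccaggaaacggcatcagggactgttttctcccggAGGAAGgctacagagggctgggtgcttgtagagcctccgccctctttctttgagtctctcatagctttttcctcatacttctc
Trem2: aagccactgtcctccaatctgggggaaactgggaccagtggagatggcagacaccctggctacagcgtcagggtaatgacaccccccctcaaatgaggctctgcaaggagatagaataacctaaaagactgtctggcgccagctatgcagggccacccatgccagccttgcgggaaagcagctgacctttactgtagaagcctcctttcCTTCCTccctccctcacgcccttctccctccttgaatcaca
The core began 52 bases before the start in P2ry12 and 83 in Itgam, and its reverse form began 41 bases before the start in Trem2. The letters AGGAAG were in 5 of the 8 member promoters and in 29.5% of all 32851 promoters of the same length. The 5 were those of P2ry12, Itgam and Trem2 and each promoter of Spp1, which has more than 1. The promoters of Cx3cr1, Cd68 and Aif1 lacked the core. The longer form GAGGAAG, which contains the core, was in 3 of 8 (Itgam, Spp1 and Trem2) and in 10.6% of all. The letters of the ER stress element that ATF6 binds (CCAAT, any 9 bases, then CCACG, on either strand) were in 0 of the 8 and in 0.113% of all promoters, and its CCACG end alone was in 1 of 8, that of Aif1, and in 28.3% of all. These are matches of letters and say nothing of binding in these retinas.

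Both comparisons ask how retinal RNA changes when ATF6 is lost or inhibited, and in neither was any of the 10 genes called. In *Atf6*−/− against *Atf6*+/+ OIR retinas, 0 of 10 passed a limma adjusted p under 0.05, beside 5 of 15704 genes tested (0.0318%). The fitted change was negative for 9 of 10, with a median of −0.14 on the log2(FPKM + 0.1) scale, beside a median of 0.0028 over all genes tested. Before adjustment, at p of 0.05 or below, 2 of 10 were lower (Aif1 and Itgam), where 5.83% of all genes were, and 0 of 10 were higher, where 6.92% of all genes were. The levels of the 2 genotypes overlapped for all 10 members, while they did not overlap for 1.78% of all genes.

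After Ceapin-A7, 0 of 10 genes passed the adjusted threshold, as did 0 of 15408 genes tested (0%). The limma test without adjustment gave 1596 of those genes (10.4%) at p of 0.05 or below. Among the members, P2ry12 and Spp1 were higher at that unadjusted threshold, where 5.04% of all genes were, and none was lower, where 5.32% were. The fitted change was positive for 5 of 10 and negative for 5 of 10, with a median of 0.015, beside 0.00073 over all genes. P2ry12 was the single member whose libraries did not overlap between the groups, where 1.47% of all genes did not.

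**Figure D1:**
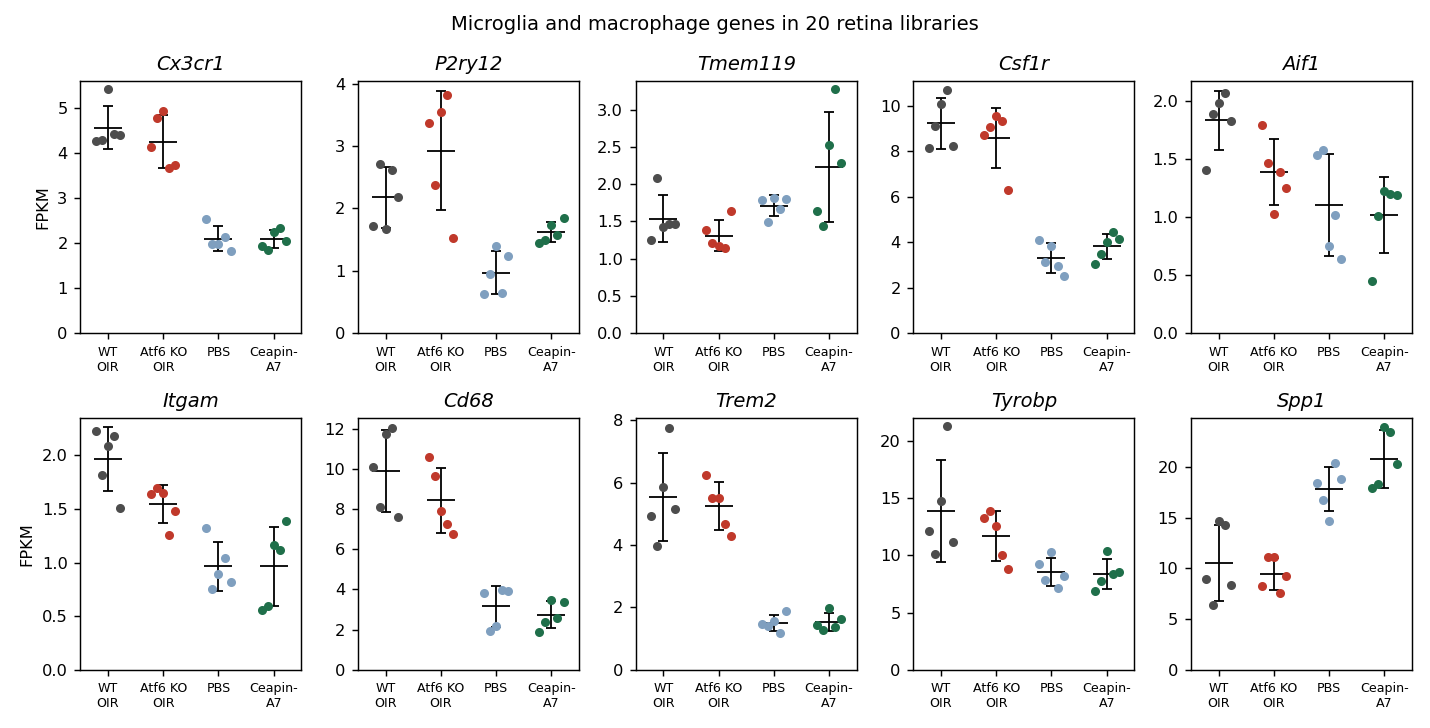
FPKM of each of the 10 genes (vertical axes, each from 0) in the 20 libraries, by group. Dots are libraries, horizontal bars are means and whiskers are SD (n = 5). In Cx3cr1, Csf1r, Cd68 and Trem2 all 10 OIR libraries lie above all 10 libraries of injected eyes, and Spp1 shows the reverse.

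P2ry12 (chr3:59216272-59262871, minus strand), the ADP receptor with which resting microglia sense nucleotides, had the largest fitted change of the members after Ceapin-A7. Loci here and below are those of GENCODE M21 on GRCm38. It was at 0.62, 0.94, 1.39, 0.64 and 1.24 FPKM in the 5 saline-treated libraries and at 1.45, 1.5, 1.73, 1.58 and 1.85 FPKM in the 5 Ceapin-A7-treated ones. Every Ceapin-A7 library was above every saline library, with the highest saline value just under the lowest Ceapin-A7 value. The means were 0.966 ± 0.347 and 1.62 ± 0.166 FPKM, a log2 fold change of 0.75 (SE 0.203, 95% confidence interval 0.31 to 1.19). The unadjusted limma p was 0.00332, rank 78 of 15408 genes, and the adjusted p was 0.472. The exact two-sided permutation p over all arrangements of the 10 libraries was 0.00794, the smallest that 5 against 5 libraries can give. These levels rest on about 24 to 71 fragments a library.

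In the OIR experiment P2ry12 was at 1.72, 2.71, 1.67, 2.62 and 2.18 FPKM in *Atf6*+/+ and at 3.37, 2.37, 3.55, 3.82 and 1.53 FPKM in *Atf6*−/− retinas. Of the *Atf6*−/− libraries, 3 were above all *Atf6*+/+ libraries and 1, library 5, was below them all. The log2 fold change was 0.38 (SE 0.224, interval −0.11 to 0.87, limma adjusted p = 0.450), the single positive value among the 10. With limma array weights, which gave *Atf6*−/− OIR library 5 and *Atf6*+/+ OIR library 4 weights of 0.346 and 0.344, it was 0.58 with an adjusted p of 0.0473, and the same setting called 2772 genes in place of 5.

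P2ry12 has a transcript of unusually low GC content, 38.6%, lower than in all but 2.87% of the genes with a value. Within groups the libraries differed in a trend with GC content. It was taken from log2 deviations from the group mean, as the median of the fifth of genes lowest in GC minus that of the fifth highest. This trend ran from −0.36 in *Atf6*−/− OIR library 5 to 0.32 in *Atf6*+/+ OIR library 4, and P2ry12 deviations followed it with r = 0.576 over 20 libraries. In the injection experiment the trend was −0.049 to 0.16 in saline-treated and −0.075 to 0.043 in Ceapin-A7-treated libraries. As group means were removed, these ranges cannot show a difference between the treatments. Between genotypes in OIR, Spearman's rank correlation of log2 fold change with GC content was −0.479 over 15227 genes. Genes low in GC thus tended to be higher in *Atf6*−/− OIR retinas. For Ceapin-A7 against saline it was −0.099 over 14956 genes. After a GC content correction, an alternative added with the data seen, the log2 fold change of P2ry12 was 0.73 after Ceapin-A7 and 0.26 in *Atf6*−/− OIR. Med12l, which is read from the opposite strand across P2ry12 and shares 9 of its 2546 exon bases, was 4.31 FPKM in saline-treated and 4.18 FPKM in Ceapin-A7-treated retinas, and 4.23 and 4.98 FPKM in *Atf6*+/+ and *Atf6*−/− OIR retinas. Whether the counting used strand is not stated, so the share of Med12l reads in P2ry12 was not tested.

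**Figure D2:**
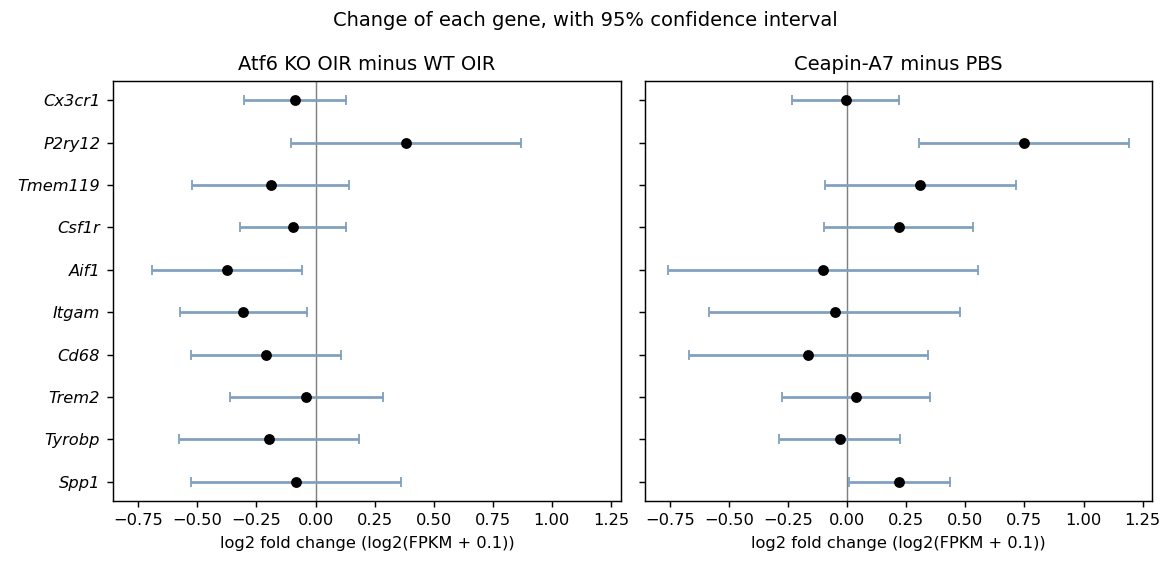
Fitted log2 fold change on the log2(FPKM + 0.1) scale (horizontal axis) for each gene in the OIR comparison (left) and the injection comparison (right). Points are estimates and bars are 95% confidence intervals. In the right panel, P2ry12 at 0.75 lies furthest from 0 and the interval of Spp1 also lies above 0. In the left panel, those of Aif1 and Itgam lie below 0.

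For the other surface proteins of resting microglia the intervals included 0 in both comparisons. Cx3cr1 (chr9:119901616-120069879, minus strand), the receptor for neuronal fractalkine, was at 2.54, 1.98, 1.98, 2.14 and 1.83 FPKM in saline-treated and 1.93, 1.85, 2.23, 2.33 and 2.05 FPKM in Ceapin-A7-treated retinas. The groups overlapped almost fully, with a log2 fold change of −0.0071 (SE 0.103, interval −0.23 to 0.22). In OIR it was at 4.26, 4.29, 5.41, 4.42 and 4.39 FPKM in *Atf6*+/+ and 4.12, 4.78, 4.93, 3.66 and 3.72 FPKM in *Atf6*−/− retinas, with a log2 fold change of −0.088 (interval −0.30 to 0.13). Cx3cr1 had the tightest replicates of the members in *Atf6*+/+ OIR retinas, with a coefficient of variation of 10.6%. The ratio of P2ry12 to Cx3cr1 FPKM, looked at after the values were seen, was 0.244, 0.475, 0.702, 0.299 and 0.678 in saline-treated and 0.751, 0.811, 0.776, 0.678 and 0.902 in Ceapin-A7-treated libraries. Of the 5 Ceapin-A7 ratios, 4 exceeded every saline ratio. The ratio of P2ry12 to Csf1r was 0.151 to 0.498 in saline-treated and 0.357 to 0.475 in Ceapin-A7-treated libraries, and 0 of the 5 Ceapin-A7 values exceeded every saline value.

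Tmem119 (chr5:113793729-113800516, minus strand), a membrane protein that separates microglia from blood-derived macrophages, was at 1.79, 1.49, 1.82, 1.67 and 1.80 FPKM in saline-treated retinas and 1.64, 1.44, 2.53, 3.28 and 2.28 FPKM after Ceapin-A7. Of the Ceapin-A7 libraries, 3 were above and 1 was below all saline libraries, and the group's coefficient of variation was 33.0%, against 8.07% in saline. The log2 fold change was 0.31 (SE 0.184, interval −0.094 to 0.71, adjusted p = 0.541), and it was 0.17 without Ceapin-A7 library 4. In OIR, Tmem119 was at 1.25, 2.08, 1.42, 1.46 and 1.47 FPKM in *Atf6*+/+ and 1.38, 1.21, 1.17, 1.15 and 1.64 FPKM in *Atf6*−/− retinas. The log2 fold change of −0.19 (interval −0.52 to 0.14) became −0.079 without *Atf6*+/+ library 2 and −0.058 after the GC content correction.

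Csf1r (chr18), the growth factor receptor on which microglia depend, was at 4.11, 3.11, 3.83, 2.96 and 2.49 FPKM in saline-treated and 3.05, 3.49, 4.02, 4.43 and 4.14 FPKM in Ceapin-A7-treated retinas. The log2 fold change was 0.22 (SE 0.144, interval −0.099 to 0.53), and the groups overlapped. In OIR it was at 8.13, 9.10, 10.06, 10.68 and 8.23 FPKM in *Atf6*+/+ and 8.71, 9.07, 9.53, 9.31 and 6.30 FPKM in *Atf6*−/− retinas. Apart from *Atf6*−/− library 5, the levels of the 2 genotypes overlapped closely, with a log2 fold change of −0.095 over all libraries (interval −0.32 to 0.13), −0.0072 without that library and −0.023 after the GC content correction. The Csf1r exons share 15.1% of their bases with Hmgxb3 on the other strand. Hmgxb3 was at 10.9 to 12.4 FPKM in the group means, above Csf1r in every group. With saline the means were 12.28 FPKM for Hmgxb3 and 3.30 FPKM for Csf1r. Whether the counting used strand is not stated, so the Csf1r level and its ratios are uncertain by an amount that was not tested.

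The 2 members with the lowest unadjusted p in OIR were both pan-macrophage proteins. Aif1 (chr17:35170991-35176068, minus strand), which encodes the actin-binding protein IBA1 used to stain microglia, was at 1.41, 1.89, 1.99, 2.07 and 1.83 FPKM in *Atf6*+/+ and 1.80, 1.47, 1.03, 1.39 and 1.25 FPKM in *Atf6*−/− retinas. Of the *Atf6*−/− libraries, 3 were below every *Atf6*+/+ library. The means were 1.84 ± 0.256 and 1.39 ± 0.285 FPKM, a log2 fold change of −0.37 (SE 0.145, interval −0.69 to −0.058). The limma p was 0.0241 unadjusted and 0.365 adjusted, and the exact permutation p was 0.0238.

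Itgam (chr7:128062640-128118491, plus strand), the CD11b integrin chain of microglia and myeloid cells, was at 2.23, 1.82, 2.09, 2.18 and 1.51 FPKM in *Atf6*+/+ and 1.64, 1.7, 1.65, 1.26 and 1.48 FPKM in *Atf6*−/− retinas. Of the *Atf6*+/+ libraries, 4 were above every *Atf6*−/− library, and library 5 lay among them. The log2 fold change was −0.31 (SE 0.124, interval −0.57 to −0.036), with limma p = 0.0296 unadjusted and 0.367 adjusted, and an exact permutation p of 0.0397. In the GRCm38 annotation 68.7% of the Itgam exon bases are also exons of Gm49368 on the same strand, which is not listed in these tables, so the Itgam level is uncertain.

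After Ceapin-A7 the intervals of both genes included 0. Aif1 was at 1.54, 1.58, 0.75, 1.02 and 0.64 FPKM in saline-treated and 0.45, 1.01, 1.23, 1.2 and 1.19 FPKM in Ceapin-A7-treated retinas, the widest saline spread of the members, with a coefficient of variation of 39.5%. Its log2 fold change of −0.10 had an interval of −0.76 to 0.55 and became 0.13 without Ceapin-A7 library 1. Itgam was at 1.32, 0.75, 0.89, 1.04 and 0.82 FPKM in saline-treated and 0.56, 0.59, 1.16, 1.12 and 1.39 FPKM in Ceapin-A7-treated retinas. Both groups had the same mean, 0.964 FPKM, and the log2 fold change was −0.053 (interval −0.58 to 0.48).

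Cd68 (chr11:69664213-69666153, minus strand), a lysosomal glycoprotein of phagocytes, was at 10.09, 8.10, 11.76, 12.05 and 7.59 FPKM in *Atf6*+/+ OIR and 10.60, 9.67, 7.93, 7.25 and 6.74 FPKM in *Atf6*−/− OIR retinas. The genotypes overlapped, with a log2 fold change of −0.21 (SE 0.146, interval −0.53 to 0.11). In injected eyes it was at 3.82, 1.91, 2.16, 3.97 and 3.93 FPKM with saline and 1.89, 2.38, 3.46, 2.59 and 3.40 FPKM with Ceapin-A7, a log2 fold change of −0.16 (interval −0.67 to 0.34). It was −0.31 without saline library 2 and −0.047 without Ceapin-A7 library 1.

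The receptor and adaptor pair of phagocytic microglia had intervals that included 0 in both comparisons. Trem2 (chr17:48346401-48354147, plus strand), the lipid-sensing receptor, was at 4.93, 3.97, 5.87, 7.75 and 5.15 FPKM in *Atf6*+/+ and 6.25, 5.50, 5.49, 4.66 and 4.29 FPKM in *Atf6*−/− OIR retinas, with a log2 fold change of −0.038 (SE 0.149, interval −0.36 to 0.29). Tyrobp (chr7:30413760-30417585, plus strand), the adaptor through which TREM2 signals, was at 12.15, 10.12, 14.75, 21.33 and 11.22 FPKM in *Atf6*+/+ and 13.30, 13.85, 12.56, 10.04 and 8.85 FPKM in *Atf6*−/− OIR retinas. The highest value of both genes was in *Atf6*+/+ OIR library 4, and without that library the log2 fold changes were 0.077 for Trem2 and −0.044 for Tyrobp, against −0.20 for Tyrobp with all libraries (interval −0.58 to 0.18).

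In injected eyes Trem2 was at 1.47, 1.39, 1.55, 1.18 and 1.87 FPKM with saline and 1.44, 1.27, 1.99, 1.36 and 1.62 FPKM with Ceapin-A7. Tyrobp was at 9.26, 7.86, 10.26, 7.18 and 8.22 FPKM with saline and 6.89, 7.75, 10.35, 8.35 and 8.54 FPKM with Ceapin-A7. Both genes overlapped between the groups, with log2 fold changes of 0.037 for Trem2 (interval −0.27 to 0.35) and −0.032 for Tyrobp (interval −0.29 to 0.22).

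Spp1 (chr5:104435118-104441050, plus strand), which encodes the secreted matrix protein osteopontin, is made by activated microglia and in the retina also by alpha-type ganglion cells. It was at 18.36, 16.71, 14.70, 20.41 and 18.77 FPKM in saline-treated and 17.89, 18.29, 23.96, 23.47 and 20.23 FPKM in Ceapin-A7-treated retinas. Of the Ceapin-A7 libraries, 2 were above all saline libraries and the others lay among them, with means of 17.8 ± 2.17 and 20.8 ± 2.84 FPKM. The log2 fold change was 0.22 (SE 0.0971, interval 0.0077 to 0.43), with limma p = 0.0435 unadjusted and 0.474 adjusted, and an exact permutation p of 0.111. In OIR, Spp1 was at 8.95, 6.37, 14.69, 14.25 and 8.36 FPKM in *Atf6*+/+ and 8.27, 11.12, 11.07, 7.55 and 9.19 FPKM in *Atf6*−/− retinas. All *Atf6*−/− values lay within the range of the *Atf6*+/+ libraries, with a log2 fold change of −0.082 (interval −0.53 to 0.36).

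Other genes of the same pathways were read from lists, and none of them was called in either comparison. Among ligands and partners of the CSF1R, CX3CR1 and purinergic systems, 12 of 14 had a negative fitted change in *Atf6*−/− OIR retinas, 2 of them at the unadjusted threshold, and 1 was higher at that threshold. The beta2 integrin chain Itgb2, the partner of Itgam, was 1.59 ± 0.30 FPKM in *Atf6*+/+ and 1.11 ± 0.206 FPKM in *Atf6*−/− OIR retinas (log2 fold change −0.46, adjusted p = 0.358). The TGF-beta receptor chain Tgfbr1, which carries the signal that keeps microglia homeostatic, was 5.38 and 6.28 FPKM (log2 fold change 0.23, adjusted p = 0.362). Of partners of TREM2 and TYROBP signalling, 10 of 12 measured were negative and 3 passed the unadjusted threshold: the phosphatase gene Ptpn6 (−0.40), the adaptor gene Lcp2 (−0.50) and the exchange factor gene Vav1 (−0.31). Fyb1 of that list was not found in the tables. Of microglial transcription factors, 9 of 10 were negative and 1 passed, Irf8 (2.75 ± 0.582 and 1.91 ± 0.294 FPKM, log2 fold change −0.47, adjusted p = 0.358). Medians of the 3 lists were −0.20, −0.19 and −0.19.

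Further homeostatic genes and activation genes were split in direction. In *Atf6*−/− OIR retinas 8 of 18 further homeostatic genes were positive and 10 negative (median −0.027), with none at the unadjusted threshold. Of 23 activation genes, 9 were positive and 14 negative (median −0.085). Among these Apoe, a lipid carrier that Muller glia also make in quantity, was 871 ± 90.1 and 1016 ± 83.5 FPKM (log2 fold change 0.24, adjusted p = 0.365), and the protease gene Ctsz was −0.23 (adjusted p = 0.378). Several genes of both lists, such as Sparc, Cst3, Cd9 and Cd63, are expressed by other retinal cells as well, so these lists are not microglia alone.

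After Ceapin-A7, 13 of 18 further homeostatic genes were positive (median 0.14), 3 of them at the unadjusted threshold: Ltc4s, Selplg and Cd33. Ltc4s, the leukotriene C4 synthase gene, was 0.338 ± 0.108 FPKM with saline and 0.894 ± 0.420 FPKM with Ceapin-A7 (log2 fold change 1.11, adjusted p = 0.472). Of 23 activation genes 10 were positive, and the chemokine gene Ccl3 was 0.742 ± 0.487 and 0.226 ± 0.211 FPKM (log2 fold change −1.41, adjusted p = 0.472). Igf1 was 3.80 ± 0.305 and 4.76 ± 0.865 FPKM (log2 fold change 0.30), and Gpnmb, which pigment cells also express, was 15.8 ± 14.95 and 40.5 ± 31.0 FPKM (log2 fold change 1.45), each also with an adjusted p of 0.472. In the CSF1R, CX3CR1 and purinergic list 6 of 13 were positive, in the TREM2 list 4 of 11 and among transcription factors 5 of 10, with medians of −0.011, −0.020 and −0.0038.

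Lists of other cells are given beside these values, with a leukocyte-wide list that is not separate from microglia. That list includes C1qa, C1qb, C1qc and Ly86, which varied closely with the members' mean (r of 0.926, 0.878, 0.927 and 0.897). In *Atf6*−/− OIR retinas 14 of 15 leukocyte-wide genes were negative, 3 at the unadjusted threshold, with a median of −0.10 and summed levels of 139 to 208 FPKM in *Atf6*+/+ and 127 to 160 FPKM in *Atf6*−/−. Among perivascular macrophage and monocyte genes 8 of 14 measured were negative, with summed levels of 21.3 to 32.1 and 19.0 to 28.8 FPKM, and the defining monocyte genes Ccr2 and Chil3 did not pass the filter on low values. Plac8, a gene of inflammatory monocytes, was 0.736 ± 0.418 FPKM in *Atf6*+/+ and 0.09 FPKM in each *Atf6*−/− library (log2 fold change −1.97, limma adjusted p = 0.0611). The *Atf6*−/− value, with an SD of 0, lies below the pseudocount of 0.1 FPKM. It is near the floor and rests on few fragments, so this test is uncertain. Of neutrophil genes 5 of 6 and of lymphocyte genes 4 of 5 measured were negative, with the defining genes Ly6g, Cd3e, Cd3d, Cd3g and Ms4a1 below the filter. Endothelial genes (11 of 12 negative, median −0.30) and pericyte genes (8 of 8, median −0.42) had medians further below 0 than the members did, with 4 genes each at the unadjusted threshold. Rod genes were positive in 10 of 10 (median 0.11), as were 7 of 12 Muller glia genes (0.069) and 10 of 11 retinal pigment epithelium genes (0.66), while 7 of 12 ganglion cell genes were negative (−0.029). Summed lens genes were 10.2 to 911 FPKM in *Atf6*+/+ and 6.25 to 10.2 FPKM in *Atf6*−/− libraries. The part of these tissues in the members' values was not tested.

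In injected eyes, leukocyte-wide genes were positive in 9 of 15, with summed levels of 61.5 to 81.2 FPKM with saline and 54.4 to 88.7 FPKM with Ceapin-A7. Perivascular macrophage and monocyte genes were positive in 9 of 13 measured, with sums of 12.6 to 19.96 and 15.8 to 25.1 FPKM, and neutrophil genes in 2 of 4 and lymphocyte genes in 0 of 2. Among these Plac8 was 0.832 ± 0.641 FPKM with saline and 0.182 ± 0.0712 FPKM with Ceapin-A7 (log2 fold change −1.40), and the perivascular macrophage gene Pf4 was 0.358 ± 0.423 and 1.12 ± 0.601 FPKM (1.82), both at the unadjusted threshold with an adjusted p of 0.472. Positive counts were 5 of 12 for endothelial, 6 of 8 for pericyte, 10 of 10 for rod, 7 of 12 for Muller glia, 8 of 12 for ganglion cell and 6 of 11 for retinal pigment epithelium genes. At the unadjusted threshold, 2 Muller glia genes were higher and 2 lower, with log2 fold changes of 0.85 for Glul, 0.31 for Dkk3 and −0.79 for Gfap, an intermediate filament gene. Of retinal pigment epithelium genes 4 were higher and 2 lower at that threshold, so the list was split, with a median of 0.032. Among the higher were Dct (1.57), Mlana (2.13) and Pmel (1.85), all pigment cell genes. The 2 lower, named after the values were seen, were Lrat (−0.88) and Ttr (−0.86). The list summed to 137 to 304 FPKM with saline and 126 to 451 FPKM with Ceapin-A7. None of these genes passed after adjustment. Lens genes were positive in 16 of 16, with sums of 12.9 to 6133 FPKM with saline and 149 to 10850 FPKM with Ceapin-A7. The part of these cells in the P2ry12 and Spp1 values was not tested.

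The largest contrast among the 10 genes was between experiments. Set side by side, 6 members (Cx3cr1, P2ry12, Csf1r, Itgam, Cd68 and Trem2) were higher in all *Atf6*+/+ OIR libraries than in all saline-treated libraries, and 1, Spp1, was lower in all. Of 15631 genes, 40.4% did not overlap between these groups, 20.5% higher in OIR and 19.9% higher with saline. Age, oxygen exposure and injection differ together between these groups, which were also deposited in separate tables, so their shares in the contrast cannot be told apart and no test was made.

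Ratios of mean FPKM in *Atf6*+/+ OIR over saline-treated retinas were highest for Trem2 (3.71) and Cd68 (3.14). Csf1r followed at 2.80, P2ry12 at 2.26, Cx3cr1 at 2.17 and Itgam at 2.04, while Aif1 (1.66) and Tyrobp (1.63) overlapped between the groups. Tmem119 was nearly level at 0.896 and Spp1 was at 0.591, or 1.69 times higher in saline-treated retinas. The genes of the phagocytic state named above, Trem2, Tyrobp, Cd68 and Spp1, thus did not share a direction. The median log2 ratio over the members was 1.02, beside 0.024 over all genes. It was 0.70 over further homeostatic genes, 0.42 over activation genes and 1.21 over endothelial genes. Over the 15 leukocyte-wide genes, which include the C1q genes and Ly86 and so are not separate from microglia, it was 1.09. Of these 15, 11 were higher in all 5 *Atf6*+/+ OIR than in all 5 saline-treated libraries.

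When all 20 libraries are taken, Cx3cr1, Csf1r, Cd68 and Trem2 had every OIR library above every library of injected eyes. Cx3cr1 was 3.66 to 5.41 against 1.83 to 2.54 FPKM, Csf1r 6.30 to 10.68 against 2.49 to 4.43 FPKM, Cd68 6.74 to 12.05 against 1.89 to 3.97 FPKM, and Trem2 3.97 to 7.75 against 1.18 to 1.99 FPKM. Spp1 showed the reverse at 6.37 to 14.69 against 14.7 to 23.96 FPKM, with the ranges nearly touching. In order of group means, the *Atf6*+/+ OIR group was highest for 7 members, the *Atf6*−/− OIR group for P2ry12, and the Ceapin-A7 group for Tmem119 and Spp1. The 2 groups within each experiment overlapped for every member apart from P2ry12 in the injection experiment.

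**Figure D3:**
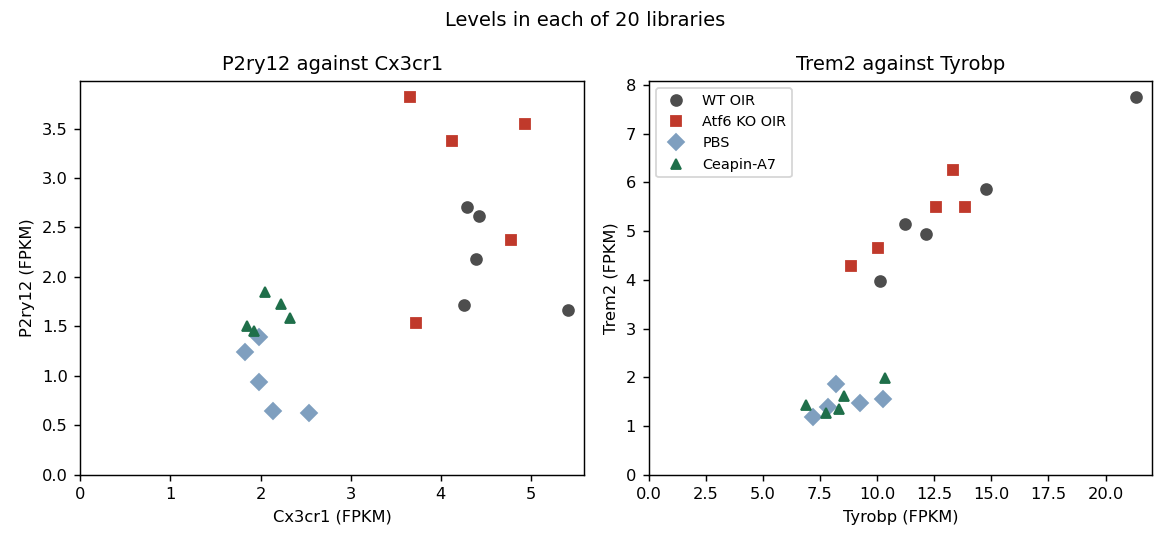
FPKM of P2ry12 against Cx3cr1 (left) and of Trem2 against Tyrobp (right), 1 symbol per library, with shape and colour for the 4 groups and axes from 0. On the left the 5 Ceapin-A7 libraries lie above the 5 saline libraries, at Cx3cr1 levels of 1.83 to 2.54 FPKM. On the right the OIR libraries fall along a line up to *Atf6*+/+ OIR library 4 at 21.3 and 7.75 FPKM.

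Within groups, most of the members tended to go up and down together from library to library. Deviations from the group mean on the log2 scale were correlated over the 20 libraries, which share preparation, depth and base composition trends, so the values are a description. Of 45 pairs of members 37 had r above 0, with a modest median of 0.274. The same share was not computed for pairs of other genes. The highest was Trem2 with Tyrobp (0.823), followed by Itgam with Cd68 (0.672) and Csf1r with Tyrobp (0.606). Csf1r was the nearest member to Cx3cr1 (0.581) and Aif1 (0.524), and Tyrobp to Spp1 (0.581). Tyrobp and Itgam followed the mean of the other members most closely, at 0.726 and 0.725.

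P2ry12 was the exception, at −0.064 with the mean of the other members, and Tmem119 was next at 0.202. The nearest members to these were Trem2 for P2ry12 (0.328) and Itgam for Tmem119 (0.496). P2ry12 ran against Spp1 (−0.365) and Cx3cr1 (−0.355). Looked at after the values were seen, P2ry12 was closer to Gpr34 (0.689), Siglech (0.645) and P2ry13 (0.540), which encode other microglial receptors, than to any member. These 3 genes followed the library trend with GC content at r of 0.713, 0.640 and 0.661, as P2ry12 did at 0.576, while Cx3cr1 was at −0.156 and Tmem119, with 59.0% GC, at −0.452. How much of the likeness of these genes comes from that trend was not tested.

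**Figure D4:**
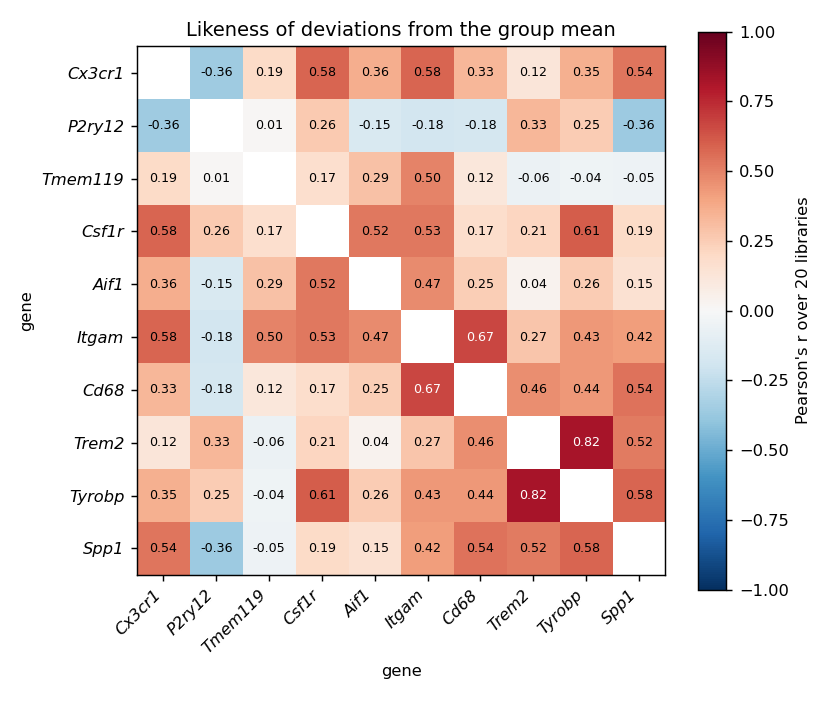
Pearson's r between pairs of the 10 genes (rows and columns), from deviations from the group mean of log2 values over 20 libraries. Red is positive and blue negative. The strongest cell is Trem2 with Tyrobp at 0.82, and the row of P2ry12 holds the lowest values, −0.36 with Cx3cr1 and with Spp1.

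Of 12424 other genes above 1 FPKM in every group mean, those much like the mean of the members included the complement gene C1qc (0.927) and C1qa (0.926), Ly86 (0.897), C1qb (0.878) and the Fc receptor-like gene Fcrls (0.857). Slc35b2, Rnase4, Fcer1g and Imp3 were also among the first 10, at 0.834, 0.805, 0.803 and 0.80. The 99th percentile of all genes was 0.605 and their median was −0.018. Their levels are set side by side between experiments. C1qa was 26.9 FPKM in *Atf6*+/+ OIR and 8.60 FPKM in saline-treated retinas, and Fcrls was 6.03 and 1.16 FPKM.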

How the data were processed

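Bulk RNA-Seq of 20 mouse retina libraries was used, 5 in each of 4 groups named by the labels. The authors made stranded mRNA libraries, aligned reads to GRCm39 with HISAT2 (2.0.4), quantified with RSEM (1.2.18) and deposited 4 tables of FPKM, rounded to 2 decimals. The submitters' notes also list DESeq2 (1.4.5). Counts are not analysed here, so precision is known from the replicate spread and from approximate fragments.

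Each library was scaled by its median-of-ratios factor. After adding a pseudocount of 0.1, log2 values were tested for genes whose mean exceeded 0.1 FPKM, using limma (3.58.1, eBayes with trend) in R (4.3.3), in a separate fit of the 10 libraries of each experiment, with Benjamini-Hochberg adjustment over all genes tested. On simulated data with 200 genes changed 2-fold, 92.5% (OIR) and 95.5% (injection) were recovered. The changed genes were drawn from those with a mean above 1 FPKM, and the noise was independent between genes. These rates therefore do not cover smaller changes, lower genes or trends shared by a whole library. Single genes were also compared by exact two-sided permutation. Fold changes on this scale understate those of low genes.

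The members and gene lists were chosen with earlier results of these data known. Named genes were the members, up to 3 genes of smallest p per list, and the 10 genes most like the members, of which 1 is not reported here. Loci, overlaps and GC content come from GENCODE M21 (GRCm38), not the authors' build. Alternatives changed the pseudocount, filter, scaling, weights, samples and block.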

Additional observations from a re-analysis of the deposited data

Results flagged for a closer look

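In each of the 40 sets of 5 libraries (10 genes in 4 groups), the highest and lowest library was compared with the rest, and 4 stood further from their nearest neighbour than 0.71 of the group's range. Chance alone marks about 1 in 20 such groups. Aif1 in Ceapin-A7 library 1 was at 0.45 FPKM, or about 6 fragments, with the other 4 libraries at 1.01 FPKM or more. Cx3cr1 in *Atf6*+/+ OIR library 3 was at 5.41 FPKM, above 4 libraries of 4.26 to 4.42 FPKM. Tmem119 in *Atf6*+/+ OIR library 2 was at 2.08 FPKM, with the next at 1.47 FPKM. Csf1r in *Atf6*−/− OIR library 5 was at 6.30 FPKM, below 4 libraries of 8.71 FPKM or more.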

How the results depend on the processing

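No member was called in either comparison under 12 of the 13 other settings in OIR and all 13 in the injection experiment, or without any 1 library. The exception was limma array weights in OIR, with 1 member called (P2ry12, 0.58) and with Trem2 at 0.076 and Spp1 at 0.017, which reversed their sign. The number of genes called in OIR, 5, was 9 with no filter on low values, 2772 with array weights, 11 in a fit of all 20 libraries, 8 with the GC content correction added after seeing the data, and 5 to 9 with 1 library left out, the 9 without *Atf6*−/− OIR library 5. For Ceapin-A7 it was 0 but for 1 in the fit of all 20 libraries, and 0 to 0 with 1 library left out.

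With 1 library left out, the median over members ran from −0.19 to −0.082 in OIR and from −0.044 to 0.11 after Ceapin-A7, and P2ry12 after Ceapin-A7 from 0.63 to 0.89. Small changes turned sign. In OIR, Trem2 ran from −0.14 to 0.077 (above 0 without *Atf6*+/+ library 4 or *Atf6*−/− library 4 or 5) and Spp1 from −0.24 to 0.051 (above 0 without *Atf6*+/+ library 3 or 4). After Ceapin-A7, Aif1 ran from −0.27 to 0.13, Cx3cr1 from −0.058 to 0.064, Itgam from −0.19 to 0.096 and Tyrobp from −0.11 to 0.039, each above 0 without saline library 1 or Ceapin-A7 library 1, and also without saline library 2 (Aif1), saline library 3 (Tyrobp) or Ceapin-A7 library 2 (Cx3cr1 and Itgam). Trem2 ran from −0.055 to 0.11, below 0 without saline library 4 or Ceapin-A7 library 3. The causes were not tested.

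Most same-numbered libraries did not deviate together (correlations −0.26 to 0.21 in OIR and −0.22 to 0.31 in the injection experiment). The exceptions were library 1 of the injection experiment (0.31), closest to its own number in both directions, and library 4 in OIR (0.21), in 1 direction. These few correlations cannot settle whether the numbers mark pairs, and they are used here as library names. With a replicate block the genes called were 5 in OIR and 0 after Ceapin-A7, with 0 members called in both. By the fewest fragments in any library, depth limits Aif1 most in both experiments, followed by P2ry12 in injected eyes and Tmem119 in OIR. Ceapin-A7 library 3 was the shallowest, and without it P2ry12 was at 0.73.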
